A study of Mus musculus with 15 samples.

Results

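Immediate early genes are transcribed within minutes of a growth factor or stress signal, without new protein synthesis, and many of their products then shut the signal down again. Those of the AP-1 complex, Fos and Jun, were set aside here, and 8 others were read: the transcription factor genes Egr1 and Myc, the early-response genes Ier2 and Ier3, the MAP kinase phosphatase genes Dusp1 and Dusp6, and Btg2 and Zfp36, whose products act on mRNA turnover. The members were all probe sets that the array annotation assigns to 1 of these 8 symbols alone, which gave 10 probe sets for 8 genes out of 10833 probe sets with a single gene.

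The cells were NIH 3T3, an immortal mouse fibroblast line, stably transfected with a zinc-inducible plasmid holding the human cDNA of 1 of 4 factors (C/EBPα, C/EBPβ, C/EBPδ, C/EBPε), or with the same plasmid empty (vector). C/EBPs are bZIP transcription factors known for their roles in fat, liver and myeloid differentiation. Every group, vector included, was under G418 selection and received zinc sulphate for 16 h, so no group shows cells without zinc. Each of the 5 groups had 3 Affymetrix MG_74Av2 arrays of total RNA. Per the labels the transfectants were polyclonal, were screened for C/EBP protein by Western blot and were induced as triplicate clones. The labels leave it unclear if the 3 cultures behind a group were transfected separately, and the p-values cover the spread among those cultures and no more. An effect of a C/EBP and a difference between transfected pools cannot then be told apart.

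Values are the deposited intensities after each array was scaled to a common median, called units below. Deposited array medians ran from 992.25 to 1149.7, and array-to-array correlations of log2 values were 0.929 to 0.965 within groups and 0.88 to 0.961 between groups. Same-numbered arrays of different groups deviated together from their group means: the correlation was 0.225 to 0.439 over the 10 pairs of arrays numbered 1 (median 0.355), 0.019 to 0.428 over those numbered 2 (median 0.2985) and -0.069 to 0.124 over those numbered 3. In each group the title of 1 array carries no number, and that array was taken as number 1. Member calls that change without all arrays numbered 1, or all numbered 2, are given with and without them. Of 8 fibroblast markers 7 passed the filter on signal, with Col1a2 at 13648 to 45766 units, and Vim did not, at 427 to 1184 units. The summed level of the 8 was 83946 to 109485 units in C/EBPα, 125595 to 181982 in C/EBPβ, 101490 to 107694 in C/EBPδ, 106382 to 138688 in C/EBPε and 104069 to 138544 in vector. Among leukocyte markers the summed level of 6 genes was 7996 to 10366 units in C/EBPα, 7095 to 8614 in C/EBPβ, 7614 to 8322 in C/EBPδ, 7215 to 8558 in C/EBPε and 9426 to 9830 in vector. The defining leukocyte gene Ptprc stayed between 15 and 480 units on its 3 probe sets, whereas the lysosomal gene Cd68 fell in C/EBPα, C/EBPβ and C/EBPε, by most in C/EBPα (log2 -2.02). Lyz2, the lysozyme gene of the same list, rose in C/EBPα (log2 1.88), to 2418 ± 362 units against 656 ± 113 in vector. The third tested gene, Csf1r, was not called in any C/EBP. Csf1r was read by an _r_at probe set at 3705 to 6539 units, a large part of the summed leukocyte levels. Its other set read 307 to 1199 units and was not tested. Of 5 epithelial and 4 endothelial markers 2 and 1 passed the filter, and none of these was called in any C/EBP. The part of these genes in the results below was not tested.

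Testing required a signal over 1092 units, the median of all values, on at least 3 of the 15 arrays. One probe set of each of the 8 genes passed, and each did so on all 15 arrays. The second sets of Egr1 and Dusp6 were over that level on 0 arrays. The second Egr1 set read 29 to 421 units and the second Dusp6 set 30 to 343 units, against a floor of 190 units below which values have no order. In a fit with no filter, neither of these dim sets was called in any comparison with vector. Relative to all probe sets the 8 bright sets ranked high, from the 77.5th percentile of mean signal for Zfp36 to the 97.7th for Ier3. Signals of different probe sets are not set against each other as levels, because probe sets differ in how brightly they read.

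Upstream sequence is shown for Dusp1 and Btg2, the pair whose signals moved most alike over the 15 arrays, and for Dusp6, which moved the other way. The 250 bases before the annotated start are RefSeq sequence of build GRCm38.p6, written 5′ to 3′ on the gene's strand. They lie at chr17:26508473-26508722 on the minus strand for Dusp1, at chr1:134079156-134079405 on the minus strand for Btg2 and at chr10:99262981-99263230 on the plus strand for Dusp6. Capitals mark a cAMP response element (TGACGTCA) or its core (TGACG, either strand).
Dusp1: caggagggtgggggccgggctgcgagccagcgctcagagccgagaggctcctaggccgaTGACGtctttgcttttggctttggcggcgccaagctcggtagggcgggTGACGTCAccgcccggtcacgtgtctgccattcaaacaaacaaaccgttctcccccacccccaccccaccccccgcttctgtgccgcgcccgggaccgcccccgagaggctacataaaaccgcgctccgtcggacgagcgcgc
Btg2: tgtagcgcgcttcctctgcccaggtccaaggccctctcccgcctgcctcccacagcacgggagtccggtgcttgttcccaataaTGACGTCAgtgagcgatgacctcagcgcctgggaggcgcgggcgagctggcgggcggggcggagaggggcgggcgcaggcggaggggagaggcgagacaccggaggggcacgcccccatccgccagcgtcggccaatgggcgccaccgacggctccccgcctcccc
Dusp6: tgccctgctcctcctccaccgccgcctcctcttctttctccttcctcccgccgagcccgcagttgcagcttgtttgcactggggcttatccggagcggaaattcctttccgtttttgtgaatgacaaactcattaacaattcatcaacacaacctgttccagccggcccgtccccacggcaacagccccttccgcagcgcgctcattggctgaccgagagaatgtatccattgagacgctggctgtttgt

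The full element lay at -143 to -136 in Dusp1 and at -166 to -159 in Btg2, counted back from the start, and 1.55% of 32851 promoters of the same length hold it. Dusp1 also had a separate core at -191 to -187, and 17.8% of promoters hold a core, those within full elements included. No core was found in the Dusp6 window. The letters of a C/EBP site (TTNNGNAA, either strand), present in 36.8% of promoters, were found in none of the 5 member windows in the table, which were those of Ier3, Dusp1, Dusp6, Btg2 and Zfp36. Nor were the AP-1 letters TGANTCA (6.75% of promoters), the ETS letters GGAAGT (19.7%) or the TATA letters TATAAA (12.4%). A CArG box, the site bound by serum response factor, lay at -58 to -49 in Zfp36 alone of the 5, and 1.47% of promoters hold one. The SP1 letters GGGCGG, in 32.7% of promoters, were in Ier3, Dusp1, Btg2 and Zfp36, and the EGR letters GCGNGGGCG, in 4.7%, were in Btg2 at -131 to -123 and in Zfp36 at -105 to -97. These windows were rich in G and C, at 68.4% in Dusp1, 73.2% in Btg2 and 56.4% in Dusp6, against a median of 52.4% over all promoters. A match describes the letters in the window, not binding.

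Across the 5 groups, 6 of the 8 genes differed in limma's moderated F-test, Zfp36 and Myc being the exceptions, against 16.5% of the 6963 probe sets tested. Against vector, C/EBPα cells had 4 members lower and 1 higher, C/EBPβ cells 4 lower and 0 higher, and C/EBPε cells 5 lower and 1 higher. Among all probe sets 7.15% were called lower and 7.17% higher in C/EBPα, 4.18% lower and 5.13% higher in C/EBPβ, and 6.91% lower and 9.38% higher in C/EBPε. In C/EBPδ cells limma called 0 of the 8 members, against 0.359% of all probe sets, and 1 member, Dusp6, had an unadjusted p under 0.05. The median log2 difference over the 8 members was -1.03 in C/EBPα, -0.76 in C/EBPβ, -0.07 in C/EBPδ and -1.09 in C/EBPε, beside 0.00, 0.04, 0.01 and 0.08 over all probe sets tested. These 4 comparisons share the vector arrays. The RNA is from bulk cultures, so a lower level in every cell and a level lost in some of the cells cannot be told apart.

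Counted by arrays, 6 of 8 members had all C/EBPα arrays below all vector arrays, against 13.7% of probe sets. The same held for 5 of 8 in C/EBPβ (11.7% of probe sets), 0 of 8 in C/EBPδ (4.77%) and 5 of 8 in C/EBPε (11.8%). The genes that fell in all 3 of C/EBPα, C/EBPβ and C/EBPε were Ier2, Dusp1 and Btg2. Dusp6 was the one member called higher, in C/EBPα and C/EBPε.

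**Figure D1:**
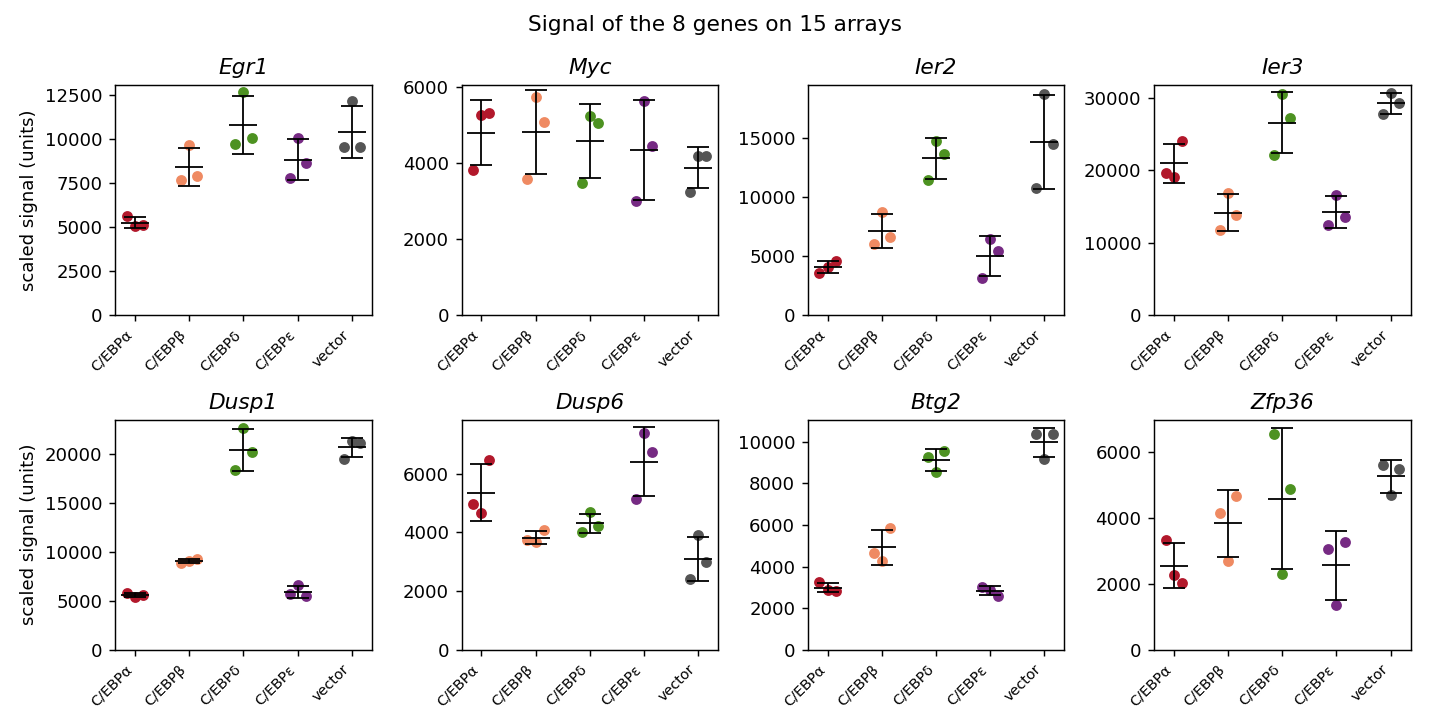
Scaled signal in units (y axis, from 0) of the brightest probe set of each gene on each of the 15 arrays, by group (x axis); points are arrays, bars the mean and SD of 3 arrays. Dusp1 and Btg2 separate C/EBPα, C/EBPβ and C/EBPε from C/EBPδ and vector with no overlap, Dusp6 lies above all vector arrays in C/EBPα, C/EBPδ and C/EBPε, and Myc overlaps in every group.

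Egr1, on chromosome 18, encodes a zinc-finger transcription factor induced by growth factors through serum response factor and its partners. Its signals were 5609, 5049 and 5097 units in C/EBPα, 7696, 9654 and 7884 in C/EBPβ, 9707, 12707 and 10059 in C/EBPδ, 7817, 10088 and 8633 in C/EBPε, and 9562, 12152 and 9568 in vector. All C/EBPα arrays lay below every other array, while the remaining groups overlapped vector. Egr1 fell 1.97-fold in C/EBPα (log2 -0.98, SE 0.15, limma adjusted p = 0.00019). The log2 difference was -0.31 in C/EBPβ (adjusted p = 0.225), 0.05 in C/EBPδ (0.996) and -0.24 in C/EBPε (0.314), none of which passed. With quantile normalization the C/EBPβ and C/EBPε differences of Egr1 passed at adjusted p-values of 0.0467 and 0.0459.

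The fall of Egr1 in C/EBPα was set directly against the other C/EBPs. Egr1 was higher in C/EBPβ by log2 0.67 (adjusted p = 0.0148), in C/EBPδ by 1.03 (0.000203) and in C/EBPε by 0.75 (0.0139), each relative to C/EBPα. The C/EBPβ difference was lost without C/EBPα replicate 2, C/EBPα replicate 3 or C/EBPβ replicate 2 (adjusted p = 0.0727, 0.0637 and 0.0915). The C/EBPε difference was lost without C/EBPα replicate 2 or 3 or C/EBPε replicate 2 or 3 (0.0688, 0.0637, 0.0698 and 0.0561). Without the 5 arrays numbered 1 both missed the threshold (0.051 and 0.0543). The genes most like Egr1 over the 15 arrays were Pdpn (podoplanin), Vcam1 and Lims1, at Pearson r of 0.954, 0.927 and 0.923. These 3 were called against vector in C/EBPα (log2 -0.72, -0.68 and -0.67) and in no other C/EBP. Because they were chosen by their r with Egr1 on these arrays, this follows largely from the choice.

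Of the genes tied to EGR1, the list held Nab1 and Nab2, corepressors that bind it, and its reported targets, and 3 of 7 could be tested. Nab2 rose 1.62-fold in C/EBPα (adjusted p = 0.00287), 1.83-fold in C/EBPβ (0.000912) and 1.88-fold in C/EBPε (0.000347). Nab1 rose in the same groups by log2 0.37, 0.46 and 0.47. Pdgfa, a platelet-derived growth factor gene, fell in C/EBPα and C/EBPε (log2 -0.70 and -0.57). In C/EBPδ none of the 3 was called. Of all probe sets 7.17%, 5.13% and 9.38% rose in C/EBPα, C/EBPβ and C/EBPε, and 7.15%, 4.18% and 6.91% fell.

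Myc, on chromosome 15, encodes the bHLH factor that drives growth and ribosome genes together with its partner Max. Its means were 4783 ± 854 units in C/EBPα, 4796 ± 1103 in C/EBPβ, 4577 ± 968 in C/EBPδ, 4344 ± 1316 in C/EBPε and 3862 ± 539 in vector (SD, n = 3 each). The array ranges overlapped in every pair of groups. No difference passed: the largest was log2 0.30 in C/EBPα, with a 95% interval of -0.20 to 0.80 (adjusted p = 0.48), so a change of up to about that upper bound lay within the error. Myc was the lowest of the group on the array numbered 1 in all 5 groups. The patterns most like Myc were those of Ahcy (r = 0.913), Acaa2 (0.903) and the RNA helicase gene Ddx5 (0.9), none of which was called against vector in any C/EBP.

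Genes tied to MYC were read from a list of partners and a list of targets. Of 6 tested partners, 1 was called in any C/EBP: Mxd4, a partner of Max that opposes MYC, fell 1.44-fold in C/EBPβ (adjusted p = 0.0244). Of 19 tested target genes, 1 rose and 1 fell in C/EBPα, 1 rose and 0 fell in C/EBPβ, and 0 moved in C/EBPδ. In C/EBPε 4 rose and 2 fell. Of all probe sets 7.17% rose and 7.15% fell in C/EBPα, 5.13% and 4.18% in C/EBPβ, and 9.38% and 6.91% in C/EBPε. The pyrimidine synthesis gene Cad rose 2.18-fold in C/EBPε (adjusted p = 0.00202), to 7145 ± 1199 units against 3242 ± 106 in vector, and 1.67-fold in C/EBPβ (0.0445). Ldha, the lactate dehydrogenase gene, rose 1.38-fold in C/EBPα and 1.36-fold in C/EBPε, and the mitochondrial chaperonin gene Hspd1 fell 1.48-fold and 1.62-fold in those groups. In C/EBPε the spermidine synthase gene Srm also rose (log2 0.58) and the cyclin gene Ccnd2 fell (log2 -0.76). The median of the target list was 0.12, 0.09, 0.02 and 0.01 on the log2 scale in C/EBPα, C/EBPβ, C/EBPδ and C/EBPε, beside the 0.00, 0.04, 0.01 and 0.08 of all probe sets.

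Ier2, on chromosome 8, encodes a nuclear protein of the early response. It read 3570, 4017 and 4587 units in C/EBPα, 6005, 8724 and 6561 in C/EBPβ, 11393, 14749 and 13632 in C/EBPδ, 3148, 6420 and 5372 in C/EBPε, and 10791, 18703 and 14462 in vector. The C/EBPα, C/EBPβ and C/EBPε arrays all lay below every vector array, and the 3 C/EBPδ arrays lay within the vector range. Ier2 fell 3.54-fold in C/EBPα (log2 -1.82, SE 0.24, adjusted p = 4.89e-05) and 3.00-fold in C/EBPε (log2 -1.58, adjusted p = 0.000238). In C/EBPβ it fell 2.04-fold (log2 -1.03, adjusted p = 0.0115), a call lost without vector replicate 2, C/EBPβ replicate 1 or C/EBPβ replicate 3 (0.0512, 0.0512 and 0.053) and with no filter (0.0576). The C/EBPδ difference was -0.12 with a 95% interval of -0.62 to 0.39.

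Ier2 was higher in C/EBPδ than in C/EBPα by log2 1.71 (adjusted p = 0.000182), and lower in C/EBPε than in C/EBPδ (log2 -1.47, adjusted p = 0.000736). It was also higher in C/EBPδ than in C/EBPβ by 0.91 (adjusted p = 0.0368), but this was lost without any 1 of 6 arrays (adjusted p = 0.0513 to 0.137): vector replicate 3, C/EBPβ replicates 1 and 3 and each C/EBPδ replicate. It was lost too with no filter (0.133), with no trend (0.0672) and without the 5 arrays numbered 2 (0.0631). Ier2 in C/EBPβ minus C/EBPα was log2 0.80 and not called, and passed without the arrays numbered 1 (log2 0.82, adjusted p = 0.0462). It passed too with quantile normalization (0.0287), no further scaling (0.0375), array weights (0.0264) and the replicate block (0.0025). The same held with only C/EBPβ and C/EBPα in the fit (0.0348) and without C/EBPε replicate 1 (0.0307). The closest patterns over 15 arrays were those of the co-chaperone gene Bag3 (r = 0.979), the cell cycle inhibitor gene Cdkn1a (0.97) and the tissue plasminogen activator gene Plat (0.967).

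Ier3, on chromosome 17, encodes a stress-inducible regulator of cell survival that acts on ERK signalling. It read 19673, 19100 and 24140 units in C/EBPα, 11772, 16845 and 13860 in C/EBPβ, 22095, 30542 and 27235 in C/EBPδ, 12501, 16666 and 13575 in C/EBPε, and 27818, 30790 and 29302 in vector. C/EBPβ and C/EBPε were the low groups here, C/EBPα lay between them and vector without touching either, and C/EBPδ overlapped vector. Ier3 fell 2.09-fold in C/EBPβ (log2 -1.06, SE 0.16, adjusted p = 0.000443) and 2.07-fold in C/EBPε (log2 -1.05, adjusted p = 0.000255). In C/EBPα the difference was -0.49 and just missed the threshold (adjusted p = 0.0514, with 0.00551 to 0.164 across alternatives).

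The order of Ier3 thus put C/EBPβ and C/EBPε together (difference 0.01, 95% interval -0.33 to 0.35). C/EBPδ was higher than C/EBPβ by log2 0.91 (adjusted p = 0.0028), and C/EBPε was lower than C/EBPδ (log2 -0.90, adjusted p = 0.00166). Relative to C/EBPα, C/EBPβ and C/EBPε read -0.57 and -0.56, which did not pass (adjusted p = 0.0721 and 0.128). Both passed under quantile normalization (0.000184 and 0.000487), no further scaling (0.0047 and 0.00857) and median log2 ratio scaling (0.0168 and 0.0259). They passed too with array weights (0.00668 and 0.0333) and the replicate block (0.00566 and 0.0127). The C/EBPβ difference also passed without C/EBPβ replicate 2 (0.0346) and without the arrays numbered 2 (0.0297). The nearest patterns to Ier3 were Gadd45a (r = 0.974), a growth arrest gene, Phlda1 (0.956) and Ubqln1 (0.938).

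Dusp1, on chromosome 17, encodes a nuclear phosphatase that switches off p38, JNK and ERK, and is itself induced by stress and growth factors. It read 5794, 5367 and 5550 units in C/EBPα, 8835, 9050 and 9208 in C/EBPβ, 18289, 22599 and 20178 in C/EBPδ, 5665, 6579 and 5431 in C/EBPε, and 19468, 21325 and 21095 in vector. The arrays formed 3 levels that did not overlap: C/EBPα with C/EBPε, then C/EBPβ, then C/EBPδ with vector. Dusp1 fell 3.70-fold in C/EBPα (log2 -1.89, SE 0.11, adjusted p = 9.51e-09), 3.51-fold in C/EBPε (log2 -1.81, adjusted p = 1.2e-08) and 2.28-fold in C/EBPβ (log2 -1.19, adjusted p = 6.57e-06). In C/EBPδ the difference was -0.02, and its 95% interval of -0.27 to 0.22 excludes changes as large as those of the other C/EBPs. By the F-test over the 5 groups Dusp1 ranked 9th of all 6963 probe sets.

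The steps between the levels of Dusp1 were tested directly. C/EBPβ was above C/EBPα by log2 0.70 (adjusted p = 0.0014) and C/EBPδ above C/EBPβ by 1.17 (1.53e-05). C/EBPε was below C/EBPβ (log2 -0.62, adjusted p = 0.00545), a call lost with C/EBPε and C/EBPβ alone in the fit (0.0666) and without the arrays numbered 1 (0.1). C/EBPε minus C/EBPα was 0.08, with a 95% interval of -0.17 to 0.32. The patterns most like Dusp1 were those of Procr, the protein C receptor gene (r = 0.994), Hbegf, the gene of an EGF-family growth factor (0.992), and Zfand2a, an arsenite- and heat-inducible gene (0.988). Procr fell further than Dusp1, by log2 -2.63 in C/EBPα, -1.78 in C/EBPβ and -2.70 in C/EBPε.

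Btg2, on chromosome 1, encodes an antiproliferative protein that recruits the deadenylase complex to mRNA and is also a p53 target. It read 3233, 2858 and 2844 units in C/EBPα, 4653, 4250 and 5847 in C/EBPβ, 9270, 8531 and 9577 in C/EBPδ, 3033, 2872 and 2593 in C/EBPε, and 10388, 9178 and 10354 in vector. The same 3 levels appeared as for Dusp1. Btg2 fell 3.52-fold in C/EBPε (log2 -1.82, SE 0.13, adjusted p = 7.22e-08), 3.35-fold in C/EBPα (log2 -1.74, adjusted p = 9.59e-08) and 2.04-fold in C/EBPβ (log2 -1.03, adjusted p = 0.00012). In C/EBPδ it read -0.13 (95% interval -0.41 to 0.15). Over the 15 arrays, which fall into the groups just described and share their scaling, Btg2 and Dusp1 had a Pearson r of 0.98.

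Between C/EBPs, Btg2 was higher in C/EBPβ than in C/EBPα (log2 0.71, adjusted p = 0.00422) and higher in C/EBPδ than in C/EBPβ (0.90, 0.000608). It was lower in C/EBPε than in C/EBPβ (log2 -0.79, adjusted p = 0.00281), which missed the threshold with only C/EBPε and C/EBPβ in the fit (0.0557). Its nearest patterns were Hsph1 and Cryab, which encode chaperones (r = 0.984 and 0.98), and Fam117a (0.981). Of 4 tested relatives of the BTG and TOB family and its deadenylase partners, Tob1 fell, 1.52-fold in C/EBPα and 1.39-fold in C/EBPε (adjusted p = 0.00895 and 0.0336), and no other was called. Among all probe sets 7.15% were called lower in C/EBPα and 6.91% in C/EBPε.

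Zfp36, on chromosome 7, encodes tristetraprolin, which binds AU-rich elements and speeds the decay of cytokine and early-response mRNAs. Its probe set is of the _s_at class, whose probes can match more than 1 transcript. It read 3312, 2271 and 2033 units in C/EBPα, 4131, 2672 and 4659 in C/EBPβ, 6534, 2295 and 4860 in C/EBPδ, 3046, 1364 and 3254 in C/EBPε, and 5605, 4670 and 5460 in vector. All arrays of C/EBPα, C/EBPβ and C/EBPε lay below the lowest vector array, but the spread within groups was the widest of the 8 genes (SE 0.36). Zfp36 fell 2.19-fold in C/EBPε (log2 -1.13, adjusted p = 0.0392). That call was lost without vector replicate 1, 2 or 3 or C/EBPε replicate 2 (0.102, 0.055, 0.106 and 0.186), without the arrays numbered 1 (0.0613), with no filter (0.141), no trend (0.0635) or no further scaling (0.0549). In C/EBPα the difference was -1.07 and missed the threshold (adjusted p = 0.0556, with 0.00244 to 0.188 across alternatives and 0.00884 without the arrays numbered 2). Without those arrays Zfp36 was also higher in C/EBPδ than in C/EBPα (log2 1.12, adjusted p = 0.014), against log2 0.75 (0.242) with them. That difference passed too without C/EBPδ replicate 2 alone (log2 1.18, adjusted p = 0.0464) and with the replicate block (0.0389). In those settings C/EBPε was also lower than C/EBPδ (adjusted p = 0.0386 and 0.0263), against 0.185 in the reported fit. The nearest patterns to Zfp36 were the chaperone gene Dnaja1 (r = 0.876), Arhgef2 (0.861) and the cytokine receptor gene Csf2rb (0.852), of which Arhgef2 fell in C/EBPα and C/EBPε (log2 -0.89 and -0.84). Of 6 tested relatives and other AU-rich element or mRNA binding genes none was called by limma in any C/EBP. Over all probe sets 14.3%, 9.31%, 0.359% and 16.3% were called in C/EBPα, C/EBPβ, C/EBPδ and C/EBPε.

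Dusp6, on chromosome 10, encodes a cytoplasmic phosphatase that is specific for ERK and is transcribed in response to ERK, as a feedback brake. It read 4950, 4664 and 6448 units in C/EBPα, 3729, 3656 and 4070 in C/EBPβ, 4023, 4677 and 4204 in C/EBPδ, 5121, 7390 and 6720 in C/EBPε, and 2394, 3902 and 2992 in vector. C/EBPα, C/EBPδ and C/EBPε lay above every vector array, and C/EBPβ overlapped vector through vector replicate 2. Dusp6 rose 2.09-fold in C/EBPε (log2 1.06, SE 0.18, adjusted p = 0.000717) and 1.75-fold in C/EBPα (log2 0.80, adjusted p = 0.00575). The C/EBPα call was lost without the arrays numbered 1 (log2 0.68, adjusted p = 0.0505). In C/EBPδ the difference was 0.50 (95% interval 0.12 to 0.88, adjusted p = 0.559), and in C/EBPβ 0.33 (95% interval -0.05 to 0.71, adjusted p = 0.297; 0.0181 with array weights).

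Between C/EBPs, Dusp6 was higher in C/EBPε than in C/EBPβ by log2 0.73 (adjusted p = 0.0455). That call was lost without any 1 of 10 arrays, at adjusted p-values of 0.0539 to 0.173: vector replicate 3, C/EBPα replicate 1, all 3 C/EBPβ replicates, all 3 C/EBPδ replicates and C/EBPε replicates 2 and 3. It was lost too without the 5 arrays numbered 1 (0.0662) or numbered 2 (0.189), with no filter (0.115), with no trend (0.0748) and with only C/EBPε and C/EBPβ in the fit (0.0785). C/EBPε minus C/EBPδ was 0.56 and not called (adjusted p = 0.0685). That difference passed with quantile normalization (0.042), no further scaling (0.028), array weights (0.00617) and the replicate block (0.0217). It passed too without vector replicate 1, vector replicate 2 or C/EBPε replicate 1 (0.0499, 0.0386 and 0.0287). C/EBPε minus C/EBPα was 0.26 with a 95% interval of -0.13 to 0.64. The patterns most like Dusp6 were those of Apbb1ip (r = 0.923), Osmr, the oncostatin M receptor gene (0.92), and Pdk1, a pyruvate dehydrogenase kinase gene (0.915). Osmr was called higher in all 4 C/EBPs (log2 1.47, 0.74, 0.80 and 1.76 in C/EBPα, C/EBPβ, C/EBPδ and C/EBPε).

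**Figure D2:**
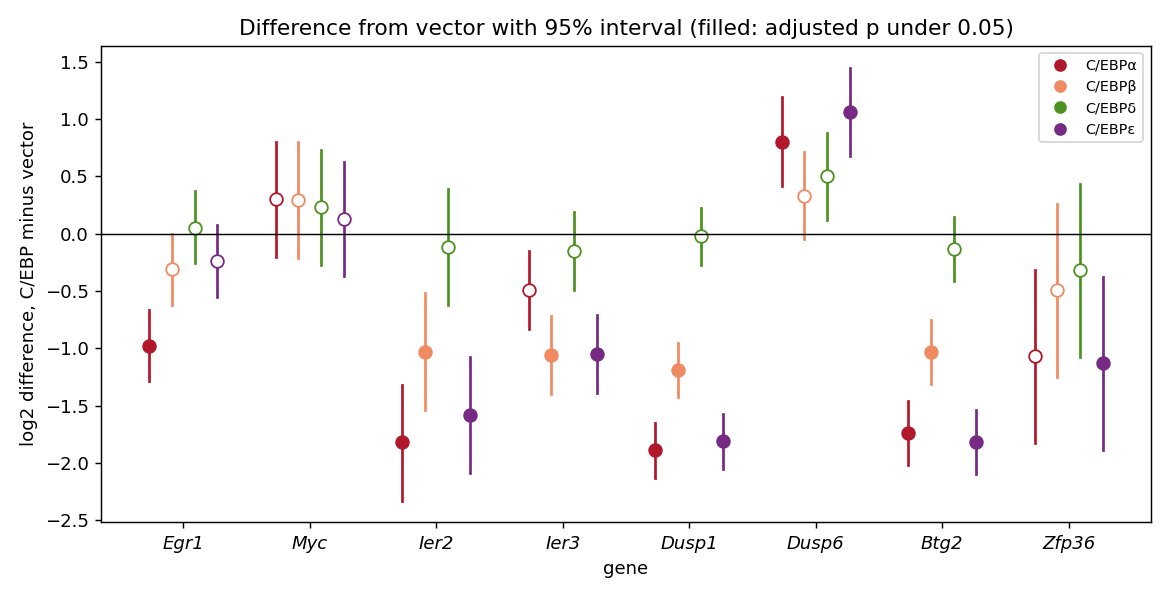
Log2 difference from vector (y axis) for each gene (x axis) and C/EBP (colour), with its 95% interval from the limma fit; filled points have an adjusted p under 0.05. Ier2, Dusp1 and Btg2 lie below 0 in C/EBPα, C/EBPβ and C/EBPε, the Dusp6 points lie above 0, and no C/EBPδ point is filled.

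The contrast between the 2 phosphatase genes was read within each array, as log2 Dusp6 minus log2 Dusp1, so that the scaling of the array drops out. The zero of this difference has no meaning, because it rests on how brightly each probe set reads, and only its change between groups is used. It was -0.23, -0.20 and 0.22 in C/EBPα, -1.24, -1.31 and -1.18 in C/EBPβ, -2.18, -2.27 and -2.26 in C/EBPδ, -0.15, 0.17 and 0.31 in C/EBPε, and -3.02, -2.45 and -2.82 in vector. All 12 C/EBP arrays lay above all vector arrays, C/EBPδ included.

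The mean of the 12 C/EBP arrays exceeded that of the 3 vector arrays by log2 1.90 (exact two-sided permutation test, p = 0.0022, the smallest it can give). This test shuffles the 15 arrays as if each were independent, though they come in 5 groups of 3. Its p-value does not cover a difference between transfected pools. The pair was compared with earlier results of these data known. By C/EBP, the difference from vector was 2.87 in C/EBPε, 2.69 in C/EBPα, 1.52 in C/EBPβ and 0.52 in C/EBPδ. Each of these had an exact permutation p of 0.1, the smallest that 3 arrays against 3 allow, and 0.1 after Benjamini-Hochberg over the 4. The sources of the difference were not the same in each group. In C/EBPβ most of it was the fall of Dusp1, log2 -1.19, with Dusp6 at 0.33. In C/EBPδ Dusp1 read -0.02 and Dusp6 0.50, so the value came almost wholly from Dusp6, which was not itself called.

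**Figure D3:**
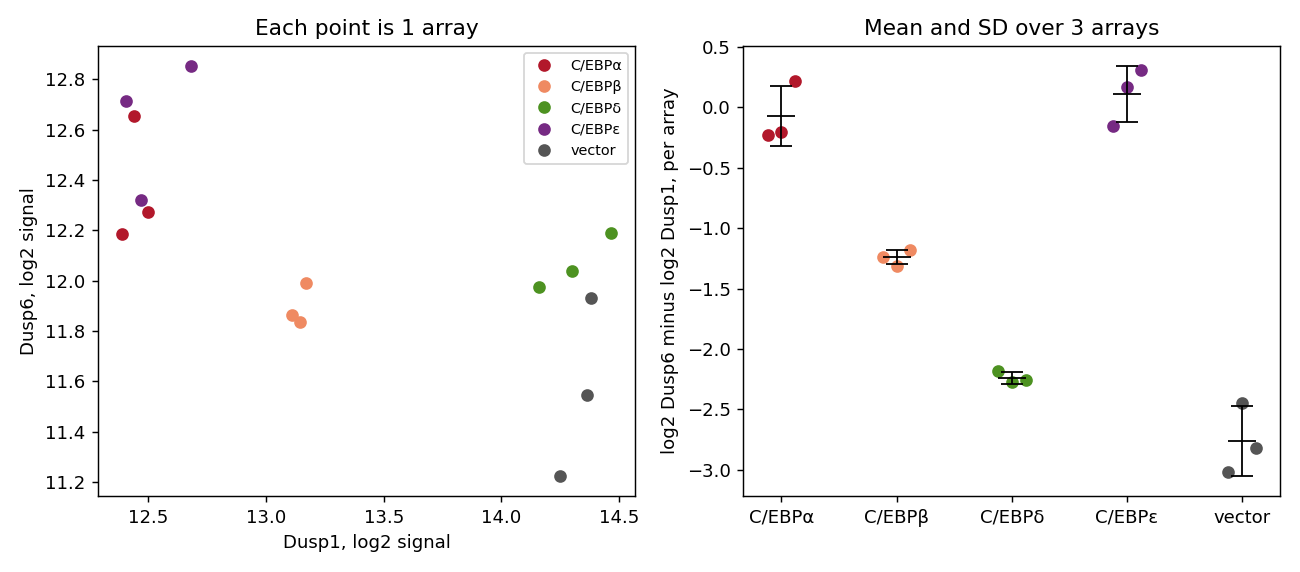
Left, log2 signal of Dusp6 (y axis) against Dusp1 (x axis) on each array; right, log2 Dusp6 minus log2 Dusp1 for each array by group, with the mean and SD of 3 arrays. C/EBPα and C/EBPε lie at low Dusp1 and high Dusp6, and all 12 C/EBP arrays exceed the highest vector array, at -2.45.

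Across the 6 comparisons between C/EBPs, the 3 that involve C/EBPδ had 4 member calls each. Against C/EBPα, C/EBPδ had 4 members higher (Egr1, Ier2, Dusp1 and Btg2), where 5.06% of probe sets were called higher. Against C/EBPβ it also had 4 higher (Ier2, Ier3, Dusp1 and Btg2; 2.66% of probe sets), and C/EBPε had those 4 lower than C/EBPδ (4.41% of probe sets). C/EBPβ had 3 members higher than C/EBPα (Egr1, Dusp1 and Btg2; 1.38% of probe sets). C/EBPε had 2 members lower than C/EBPβ (Dusp1 and Btg2; 1.29%) and 1 higher (Dusp6; 1.05%). C/EBPε and C/EBPα differed in 1 member, Egr1, higher in C/EBPε (0.546% of probe sets called higher). Myc and Zfp36 were called in none of the 6.

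**Figure D4:**
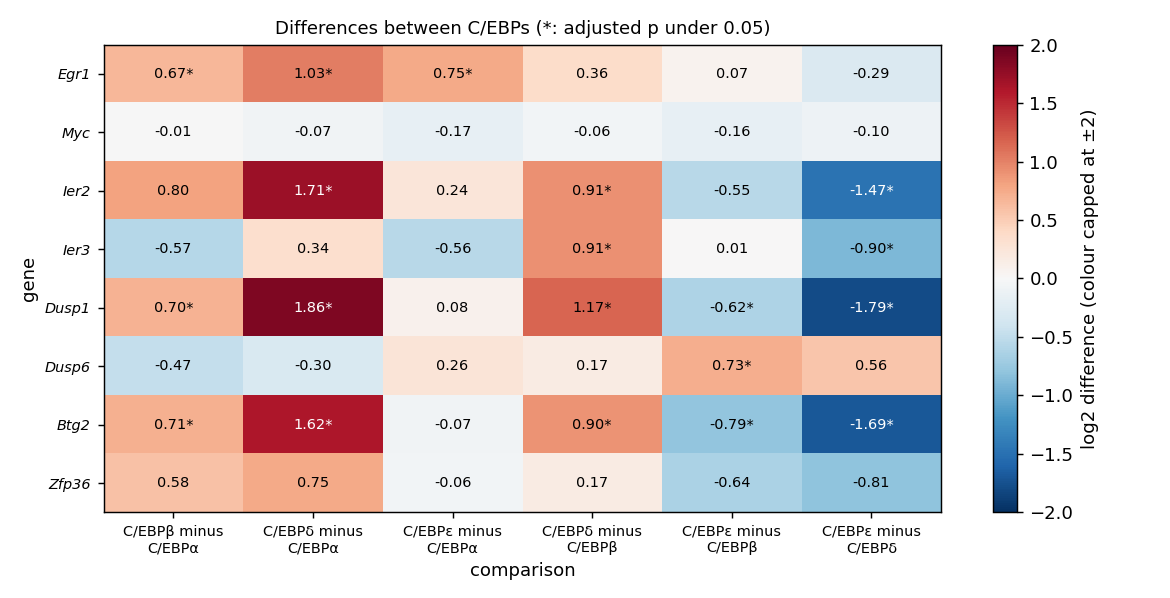
Log2 difference (number and colour, capped at 2 in either direction) of each gene (rows) between pairs of C/EBPs (columns, first minus second); an asterisk marks an adjusted p under 0.05 in limma. The columns with C/EBPδ minus C/EBPα and C/EBPε minus C/EBPδ hold 4 calls each, and C/EBPε minus C/EBPα holds 1.

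Other immediate early genes outside AP-1 were read from a list of 36, of which 28 could be tested. In C/EBPα 10 fell and 2 rose (median log2 -0.36), and in C/EBPβ 6 fell and 0 rose (-0.30). In C/EBPδ 0 fell and 1 rose (0.04), and in C/EBPε 11 fell and 1 rose (-0.43). Of all probe sets, 7.15% fell and 7.17% rose in C/EBPα, 4.18% and 5.13% in C/EBPβ, and 6.91% and 9.38% in C/EBPε. In C/EBPδ 0.359% rose. The medians over all probe sets were 0.00, 0.04, 0.01 and 0.08 in C/EBPα, C/EBPβ, C/EBPδ and C/EBPε. Hbegf averaged 2022 ± 154 units in C/EBPα, 3671 ± 499 in C/EBPβ and 2152 ± 221 in C/EBPε, against 8536 ± 1073 in vector, falls of 4.21-fold, 2.33-fold and 3.96-fold. Pim1, a survival kinase gene, fell 3.02-fold, 2.16-fold and 2.67-fold in the same 3 groups, and the Kruppel-like factor gene Klf4 did so by log2 -1.37, -0.59 and -1.49. Nr4a2, an orphan nuclear receptor gene, fell in those 3 as well (log2 -0.74, -1.13 and -1.09).

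Some genes of the list departed from that pattern. Rgs2, a brake on G protein signalling, read 952 ± 231 units in C/EBPε and 1770 ± 116 in C/EBPβ, against 4517 ± 87 in vector, falls of 4.85-fold and 2.56-fold. In C/EBPα Rgs2 read log2 -0.09 and was not called. Ccn1, which encodes a matricellular protein, fell 2.97-fold in C/EBPα and 1.94-fold in C/EBPε, and read -0.13 in C/EBPβ. Tiparp fell 1.85-fold in C/EBPα and 2.84-fold in C/EBPε (adjusted p = 0.031 and 0.000828), and read -0.37 in C/EBPβ, not called. Cxcl1, a neutrophil chemokine gene, rose 2.06-fold in C/EBPα, 1.86-fold in C/EBPδ and 2.95-fold in C/EBPε, to 12445 ± 2758, 11074 ± 1054 and 17541 ± 1136 units, against 5929 ± 93 in vector. Nr4a1, Atf3, Egr2 and Ptgs2, classical early-response genes named here after their values were seen, were not called in any C/EBP.

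**Figure D5:**
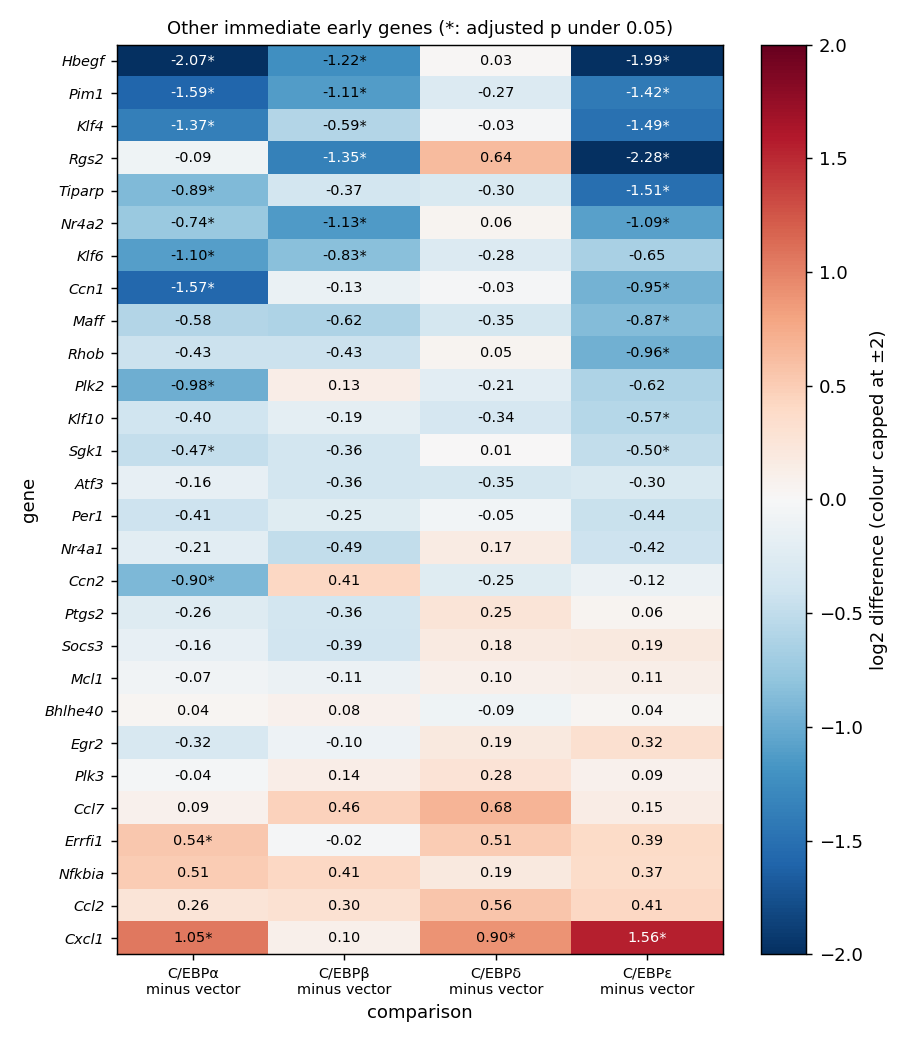
Log2 difference from vector (number and colour, capped at 2 in either direction) of the 28 tested genes of the list (rows, ordered by their mean) in each C/EBP (columns); an asterisk marks an adjusted p under 0.05 in limma. The calls of C/EBPα, C/EBPβ and C/EBPε are mostly blue, and the C/EBPδ column holds 1 call, Cxcl1.

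Because Dusp6 answers to ERK, other genes of ERK output and feedback were read beside it, and 9 of 18 could be tested. In C/EBPα 2 fell and 1 rose, in C/EBPβ 3 fell and 1 rose, in C/EBPδ 0 moved and in C/EBPε 2 fell and 0 rose. Over all probe sets, 7.15%, 4.18% and 6.91% fell and 7.17%, 5.13% and 9.38% rose in C/EBPα, C/EBPβ and C/EBPε. Spred2, which encodes an inhibitor of Ras-ERK signalling, fell 1.91-fold in C/EBPα, 1.64-fold in C/EBPβ and 1.62-fold in C/EBPε. Phlda1 fell 1.62-fold, 2.36-fold and 1.97-fold in those groups. Errfi1, a feedback inhibitor of the EGF receptor, rose in C/EBPα (log2 0.54, adjusted p = 0.0195). Fosl1, an AP-1 gene driven by ERK, fell 1.74-fold in C/EBPβ and was not called in the others. Ccnd1 rose 1.33-fold in C/EBPβ (adjusted p = 0.0439) and was not called in the others either.

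Among 5 other dual-specificity phosphatase genes tested, Dusp16, whose product acts on JNK and p38, fell 1.59-fold in C/EBPα, 1.62-fold in C/EBPβ and 1.63-fold in C/EBPε (adjusted p = 0.00668, 0.0087 and 0.005). The other 4 were not called in any C/EBP. In C/EBPα, C/EBPβ and C/EBPε, 7.15%, 4.18% and 6.91% of all probe sets were called lower, and 7.17%, 5.13% and 9.38% higher. Of 12 tested genes of the MAP kinase cascades themselves, 2 rose and 0 fell in C/EBPα and in C/EBPε, 1 rose in C/EBPβ and 0 moved in C/EBPδ. They were the p38 kinase gene Mapk14, up 1.54-fold in C/EBPα and 1.55-fold in C/EBPε, and the gene of its substrate kinase, Mapkapk2, up 1.59-fold in C/EBPα, 1.40-fold in C/EBPβ and 1.64-fold in C/EBPε. Of 4 tested genes of serum response factor, its partners and CREB-type factors, limma called 0 in any C/EBP.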

How the data were processed

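The authors deposited 1 linear signal intensity per probe set and array, from Affymetrix Microarray Suite 5.0 per the labels. From the values, the authors scaled every array to the same trimmed mean. No detection calls were in the table, so background was judged by a floor. The 66 control probe sets were left out. Each array was scaled to the mean of the array medians, values under the 20th percentile (190 units) were set to that percentile, and log2 was taken. The 6963 probe sets over the 50th percentile (1092 units) on at least 3 arrays were fitted with limma 3.58.1 (R 4.3.3; a mean per group over all 15 arrays, then eBayes with trend), and p-values were adjusted over all of them by Benjamini-Hochberg with a threshold of 0.05. The fit was tested on simulated data with independent noise on each array, which left out the shared deviations of same-numbered arrays. The number of arrays limits the precision.

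Where a gene had several tested probe sets, the brightest stood for it. For each member the 3 genes with the highest Pearson r over 15 arrays were named. From each pathway list up to 4 called genes of largest change in each comparison were named, with some of their values in the other comparisons. Members, lists and tests were chosen with earlier results of these data known. Gene symbols came from the platform annotation, and positions and upstream sequence from RefSeq GRCm38.p6. Alternatives changed the scaling, floor, filter, variance model, array weights, arrays in the fit, replicate block and probe set. The last could not alter a member, as each had 1 tested probe set. Others left out each array in turn or the arrays numbered 1, or those numbered 2 (chosen after seeing the data). The univariate F-test that the labels name was used too.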

Additional observations from a re-analysis of the deposited data

How the results depend on the processing

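Over 30 settings, 15 of which leave out 1 array, the 80 differences of a gene in a comparison gave 2400 values. Of these 2287 kept their direction where called and their side of the threshold, 49 lost the call, 64 gained it and 0 reversed a call. The setting with the dimmest tested probe set could change nothing, because each member had 1 tested probe set. Its 80 values are among those kept. The count of members called against vector stayed within 1.5 times of the reported one in every setting, as did those of C/EBPδ against the other C/EBPs and the F-test. The causes of the changes below were not tested. C/EBPβ versus C/EBPα had 3 members called, and 5 with quantile normalization, no further scaling, array weights or the replicate block, with 2 to 4 when 1 array was left out. C/EBPε versus C/EBPα had 1, and 2 with those settings or median log2 ratio scaling, 0 without the arrays numbered 1, and 0 to 1 when 1 array was left out. C/EBPε versus C/EBPβ had 3, and 0 with only those groups in the fit, 1 without the arrays numbered 1, and 2 to 3 when 1 array was left out. Dusp6 minus Dusp1 stayed at log2 1.77 to 2.06 for the 4 C/EBPs against vector when 1 array was left out.

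Same-numbered arrays of different groups had a correlation of deviations over 0.1 in 19 of 30 pairs (-0.069 to 0.439). Arrays of unlike number had one in 3 of 60 pairs (median -0.0935). The labels do not say what a number marks, so the reported fit did not use the numbers to pair the cultures. With the replicate block 7, 4, 0 and 6 members were called in C/EBPα, C/EBPβ, C/EBPδ and C/EBPε against vector, and 1440, 1099, 44 and 1676 of all probe sets, where the reported fit called 997, 648, 25 and 1134. Array weights gave 1155, 1576, 74 and 1730. Without the arrays numbered 1 these counts were 654, 339, 11 and 693, and without those numbered 2, an alternative chosen after seeing the data, 911, 484, 14 and 871. With only the groups compared in the fit C/EBPδ had 15 and C/EBPε 690, quantile normalization gave C/EBPδ 39, and leaving out 1 array took C/EBPβ, C/EBPδ and C/EBPε to 372, 13 and 750 at the lowest. With 3 arrays a group, differences under about the intervals given could not be told from 0, and signals near the floor carry no order.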

Other observations

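The members' values also varied with the array number. Ier2 and Myc were lowest on the array numbered 1 in 5 of 5 groups, and Egr1 in 4 of 5. Egr1, Ier2 and Ier3 were highest on the array numbered 2 in 4 of 5 groups each. Zfp36 and Btg2 were highest on it in 0 of 5, and Zfp36 was lowest on it in 4 of 5. These orders are of values scaled to a common median. The deposited median of the array numbered 2 was the lowest of its group in vector (1003.7), C/EBPβ (1018.35), C/EBPδ (1046.9) and C/EBPε (992.25). Scaling raised its values there relative to the rest of the group. In C/EBPα its median was the highest (1128.2). The part of the scaling in these orders was not tested.

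Over the 15 arrays, which share groups and scaling, the correlations between members were unequal. Dusp6 had a Pearson r of -0.67 with Dusp1, -0.75 with Btg2 and -0.74 with Zfp36, and -0.29 with Egr1. Myc stayed between -0.21 and 0.39 with 6 of the other members and at -0.58 with Zfp36. Ier3 and Egr1 had an r of 0.35, Ier3 being lowest in C/EBPβ and C/EBPε and Egr1 in C/EBPα.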
